A study of Homo sapiens with 6 samples.

Results

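The cyclin-dependent kinase (CDK) inhibitors studied here are the 8 genes CDKN1A, CDKN1B, CDKN1C, CDKN2A, CDKN2B, CDKN2C, CDKN2D and CDKN3. Their members on the array were the 84 probe sets whose only gene symbol in the platform annotation is one of these 8, out of 357604 probe sets with 1 symbol. Transcripts were measured in HCT116, a line grown from a human colorectal carcinoma and written HCT116 +/+ in the sample titles, which do not name the gene that +/+ refers to. The platform, Affymetrix Human Exon 1.0 ST, reads each gene through several probe sets spread along it. There were 3 groups of 2 arrays, all from cells taken at 12 h: control, Nutlin-3 and 5FU (5-fluorouracil). Nutlin-3 is a small molecule that occupies the p53-binding pocket of MDM2, and 5FU is a fluorinated uracil given against colorectal cancer. The control treatment is labelled none but DMSO in the design text, the Nutlin-3 treatment is labelled Nutlin 3R, and no dose is stated in the labels. The series title refers to synthetic lethality with Nutlin-3, and the arrays ask which transcripts each drug changes. Nothing in the labels ties replicates to separate cultures, so p-values here reflect the spread among these arrays alone, and part of it may be technical.

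CDK inhibitors bind the kinases that drive the cell cycle and keep them from acting. The Cip/Kip proteins p21 (CDKN1A), p27 (CDKN1B) and p57 (CDKN1C) bind complexes of cyclins with CDKs, whereas the INK4 proteins p16 (CDKN2A), p15 (CDKN2B), p18 (CDKN2C) and p19 (CDKN2D) bind CDK4 and CDK6 and keep D-type cyclins from activating them. CDKN2A also encodes ARF from another reading frame, a protein that binds MDM2. CDKN3 carries a similar name but is a phosphatase that removes an activating phosphate from CDK2. CDKN1A is a well-known target of the transcription factor p53, and the inhibition of CDKs by p21 keeps RB-family proteins bound to E2F factors, which lowers transcription of cell-cycle genes.

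CDKN1A and CDKN3 were the members called in these arrays, 1 higher and 1 lower, so the 250 bases before their annotated start sites are shown. Sequences are from RefSeq on GRCh38.p14, 5′ to 3′ on the strand of the gene, and both genes lie on the plus strand, CDKN1A at chr6:36678464-36678713 and CDKN3 at chr14:54396757-54397006. Capitals mark matches, on either strand (a match on the minus strand reads as its reverse complement), to GGGCGG (the GC box that Sp1 factors bind), CCAAT (the NF-Y box) and TTTGAA (the core of the cell cycle genes homology region).
CDKN1A: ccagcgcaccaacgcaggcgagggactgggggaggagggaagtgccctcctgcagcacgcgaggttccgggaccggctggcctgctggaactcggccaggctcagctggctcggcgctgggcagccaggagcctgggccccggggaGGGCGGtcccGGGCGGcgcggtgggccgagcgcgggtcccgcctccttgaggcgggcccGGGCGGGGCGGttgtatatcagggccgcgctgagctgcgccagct
CDKN3: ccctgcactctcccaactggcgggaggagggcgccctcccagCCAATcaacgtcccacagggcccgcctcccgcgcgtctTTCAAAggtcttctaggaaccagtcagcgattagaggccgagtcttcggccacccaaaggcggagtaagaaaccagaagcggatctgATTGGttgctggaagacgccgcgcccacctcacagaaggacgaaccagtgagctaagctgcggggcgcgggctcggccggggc
The CDKN1A window held 4 matches to GGGCGG, the last 2 overlapping by 1 base, and none to CCAAT or TTTGAA. The CDKN3 window held CCAAT 2 times, once on each strand, and TTTGAA 1 time, on the minus strand, at bases -170 to -165 from the start site. Neither window of 250 bases held TATAAA or a p53 half-site, and bases further upstream were not searched. Of 35116 promoter windows of this length, 42.6% held GGGCGG, 32% CCAAT, 13.3% TTTGAA, 10.7% TATAAA and 5.57% a p53 half-site. These matches were chosen after the values of both genes were known and describe letters only.

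All 8 genes had a gene level, which is the mean log2 value of a gene's probe sets that exceeded, averaged over the 6 arrays, the median of all probe sets (4.73). Of the 84 probe sets, 69 passed this filter. Probe sets differ in how brightly they hybridise, so levels are compared between arrays and not between genes, and the marker levels that follow show how steady each list was over the arrays. Colorectal epithelial markers averaged between 8.43 and 8.65 on the log2 scale across the 6 arrays, fibroblast markers (5 of 6 measured) between 6.47 and 6.71, and blood cell markers (4 of 6 measured) between 6.54 and 6.95. The keratin KRT8 read at least 11.14 on every array, and the colonic markers VIL1 and CEACAM5 read 5.71 to 5.85 and 5.96 to 6.40. Replicates differed along an axis shared by most genes. The difference of control replicate 1 over 2, of Nutlin-3 replicate 2 over 1 and of 5FU replicate 2 over 1 had 1 sign for 61.4% of all genes and for 5 of the 8 CDK inhibitors. These directions were chosen after the replicate differences were seen, so the shares describe these arrays and test nothing.

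**Figure D1:**
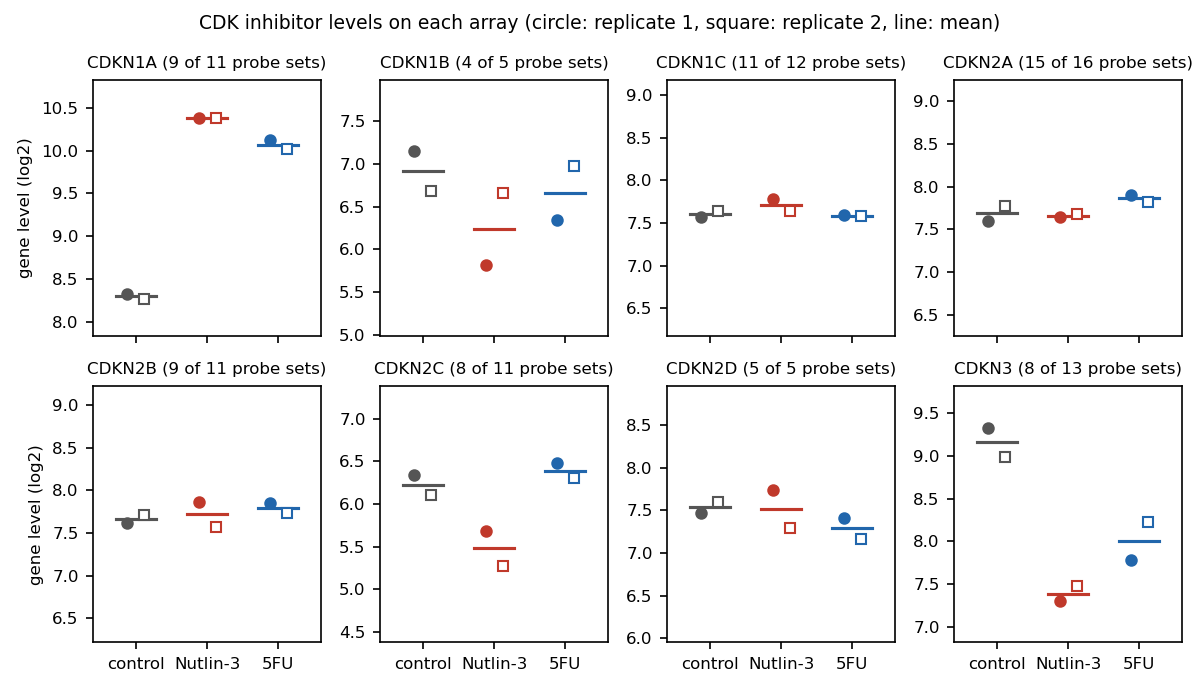
Gene levels (log2, y axis) of the 8 CDK inhibitors on each array, by group (x axis), with circles for replicate 1, squares for replicate 2 and a line at the group mean. All panels span the same log2 range around different centres; the drug arrays of CDKN1A sit above 10 and its controls below 8.4, the drug arrays of CDKN3 sit below its controls, and most other groups overlap.

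CDKN1A was higher after either drug. Its level was 8.32 and 8.27 on the control arrays, 10.39 on each Nutlin-3 array and 10.12 and 10.03 on the 5FU arrays. Every drug array lay above both controls, and both Nutlin-3 arrays lay above both 5FU arrays. Group means were 8.29 ± 0.03 in control, 10.39 ± 0.00 after Nutlin-3 and 10.07 ± 0.07 after 5FU (SD, n = 2). The rise was 2.10 on the log2 scale after Nutlin-3 (95% interval 1.80 to 2.39; limma, Benjamini-Hochberg adjusted p = 0.00308) and 1.78 after 5FU (1.48 to 2.08; limma, adjusted p = 0.00751). Limma called 0.359% of all genes higher after Nutlin-3 and 0.331% after 5FU. The Nutlin-3 call held whichever array was left out, with limma adjusted p between 0.0113 and 0.0444. The 5FU call was lost without control replicate 1 (log2 change 1.805, adjusted p = 0.0508), control replicate 2 (1.756, 0.0895), 5FU replicate 1 (1.732, 0.104) or 5FU replicate 2 (1.828, 0.104).

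The drugs were also compared directly for CDKN1A. The level after Nutlin-3 exceeded that after 5FU by 0.32 on the log2 scale, or 1.24-fold, with a 95% interval from 0.02 to 0.61 that allows a difference of nearly 0 as well as one of over 0.6. This did not pass the threshold (limma, adjusted p = 0.351). All 9 passing probe sets read higher after Nutlin-3 than after 5FU, by 0.05 to 0.59, and in 7 of them the arrays did not overlap, as was so for 20.3% of all passing probe sets.

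The probe sets of CDKN1A differed from control by unequal amounts. Of its 11 probe sets, 9 passed the filter, and for each of the 9 both arrays of either drug lay above both controls, a pattern seen in 16.8% of all passing probe sets for Nutlin-3 and 19.3% for 5FU. Probe sets pass the filter partly through groups where they are bright, so this count is a description. The remaining 2, numbered 2905172 and 2905173, had means of 4.26 and 3.53 in control. They differed by -0.57 and 0.25 after Nutlin-3, where their arrays overlapped the controls. After 5FU they differed by -0.74 and 0.60, and the 5FU arrays lay below both controls in 2905172 and above both in 2905173.

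Probe set 2905178 showed the largest difference in CDKN1A. Its values were 7.66 and 7.64 in control, 11.07 and 11.10 after Nutlin-3 and 10.62 and 10.36 after 5FU, which gives differences of 3.44 and 2.84 on the log2 scale. Probe set 2905177 showed the smallest among the 9, with 8.75 and 8.98 in control, 9.62 and 9.16 after Nutlin-3 and 9.33 and 8.997 after 5FU, or differences of 0.52 and 0.30. The first lay above the gene's mean difference and the second below it, and the lower drug array of each drug lay only just above the brighter control of 2905177. The other 7 had differences between 1.45 and 2.82 after Nutlin-3 and between 1.22 and 2.59 after 5FU.

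Each probe set was also set against the mean of its gene on the same array, which asks whether it changed unlike the rest of the gene. Relative to CDKN1A as a whole, 2905178 was higher by 1.34 after Nutlin-3 (95% interval 0.89 to 1.79) and by 1.06 after 5FU (0.61 to 1.52). Probe set 2905177 was lower, by -1.58 (-2.14 to -1.01) and -1.48 (-2.05 to -0.91). None of these passed over all probe sets (limma, adjusted p between 0.622 and 0.666). No probe set of any of the 8 genes did, out of 69 tested in each comparison, and 0 of 266194 were called in any of the comparisons. At an unadjusted p below 0.05 limma gave 9 of 69 for Nutlin-3 against control, where all probe sets gave 5.04%, 8 for 5FU against control (5.34%) and 6 for Nutlin-3 against 5FU (6.61%). With trend and robust variances 0, 0 and 2 probe sets were called in the whole table (0.000751% in the last), and 0 of the 69 in each comparison.

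**Figure D2:**
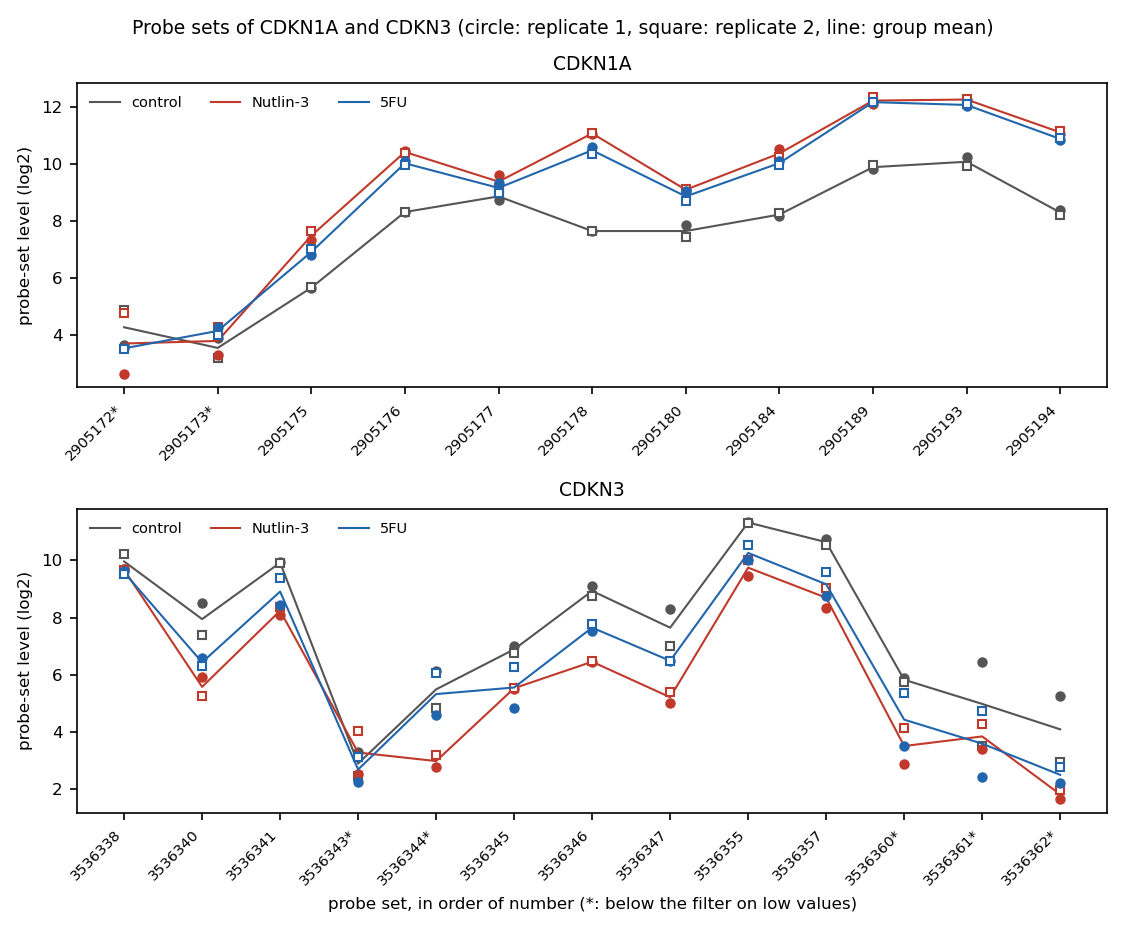
Log2 values (y axis) of every probe set of CDKN1A (top) and CDKN3 (bottom), in order of probe-set number (x axis), with circles for replicate 1, squares for replicate 2, lines joining group means, and an asterisk at probe sets below the filter. The drug groups nearly meet control at 2905177 in CDKN1A and at 3536338 in CDKN3, and lie apart from control at most other probe sets above the filter. At some of these the drug groups overlap each other.

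CDKN3 was lower after Nutlin-3. Its level was 9.33 and 8.99 in control, 7.31 and 7.47 after Nutlin-3 and 7.78 and 8.23 after 5FU. Both Nutlin-3 arrays lay below both 5FU arrays, which lay below both controls. Group means were 9.16 ± 0.24, 7.39 ± 0.12 and 8.005 ± 0.316 (SD, n = 2), in the order control, Nutlin-3, 5FU. CDKN3 fell by 1.77 on the log2 scale after Nutlin-3 (95% interval -2.24 to -1.30; limma, adjusted p = 0.0133), where 0.858% of all genes were called lower. After 5FU the difference was -1.15 (-1.62 to -0.69; limma, adjusted p = 0.0866), which did not pass; 0.118% of all genes were called lower after 5FU. With upper-quartile probe sets alone the 5FU difference was -1.123 and passed (limma, adjusted p = 0.0281). The Nutlin-3 call was lost without control replicate 1 (-1.604, limma adjusted p = 0.0856), without Nutlin-3 replicate 1 (-1.688, 0.072) and with all 13 probe sets of the gene (-1.695, 0.11).

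Nutlin-3 against 5FU gave -0.62 for CDKN3 (95% interval -1.08 to -0.15), which did not pass (limma, adjusted p = 0.256). CDKN3 is one of the genes whose replicates followed the shared axis, with control replicate 1 above 2 by 0.33, Nutlin-3 replicate 2 above 1 by 0.17 and 5FU replicate 2 above 1 by 0.45. As RNA came from whole cultures, fewer cells that express a gene and less RNA per cell cannot be told apart.

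Of the 13 probe sets of CDKN3, 8 passed the filter, and in each of the 8 the arrays of either drug lay below both controls, as did 18.4% of all passing probe sets for Nutlin-3 and 19.3% for 5FU. Of the 5 that failed it, 3 had Nutlin-3 arrays below both controls and 2 had 5FU arrays below both controls. Probe set 3536346 showed the largest difference among the 8 after Nutlin-3. It read 9.12 and 8.75 in control, 6.44 and 6.46 after Nutlin-3 and 7.52 and 7.78 after 5FU, or -2.48 and -1.28 on the log2 scale. Probe set 3536338 showed the smallest, with 9.71 and 10.23 in control, 9.69 and 9.66 after Nutlin-3 and 9.63 and 9.53 after 5FU, or -0.29 and -0.38. Relative to the gene it was higher by 1.48 after Nutlin-3 (95% interval 0.71 to 2.24; limma, adjusted p = 0.825), which did not pass. The other 7 lay between -2.48 and -1.36 after Nutlin-3.

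No single probe set passed over the whole array. For Nutlin-3 against control limma called 0 of 269135 probe sets, and the lowest adjusted p among the 69 of the CDK inhibitors was 0.0642. At an unadjusted p below 0.05 there were 19 of 69, where all probe sets gave 8.45%. They were 8 of CDKN1A, 7 of CDKN3, 2 of CDKN2C and 2 of CDKN1B. With trend and robust variances limma called 8 of CDKN1A and 3 of CDKN3, and 0.785% of all probe sets. For 5FU against control 0 were called, 17 of 69 had an unadjusted p below 0.05 (8.25% of all), with 8 of them in CDKN1A and 7 in CDKN3, and trend and robust variances called 6 of CDKN1A and 0.127% of all. For Nutlin-3 against 5FU 0 were called, 11 of 69 had an unadjusted p below 0.05 (10.2% of all), 5 of them in CDKN2C, and trend and robust variances called 0 of the 69 and 0.302% of all.

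**Figure D3:**
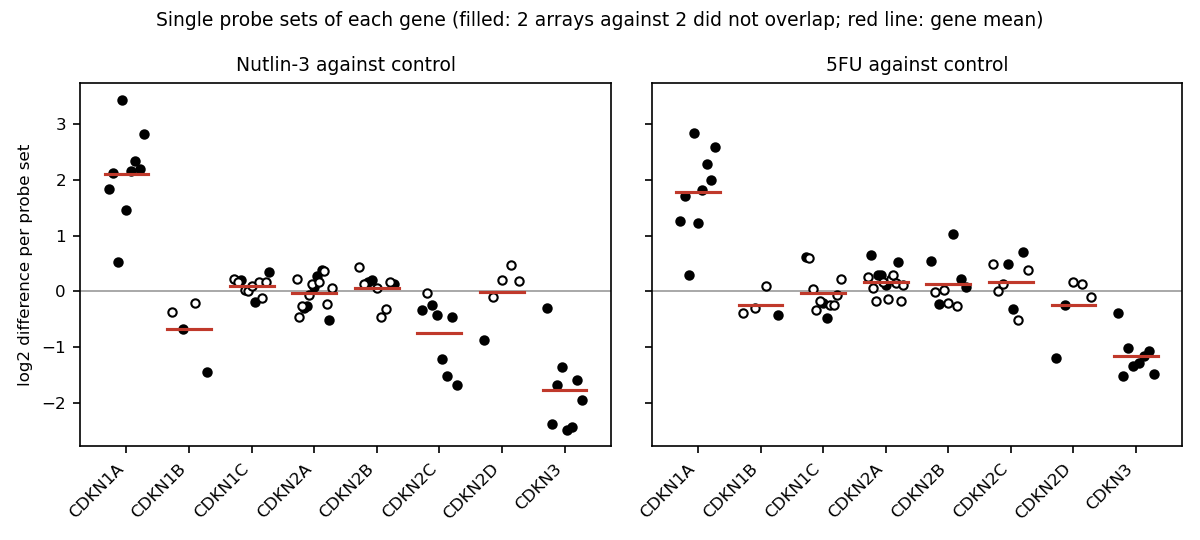
Log2 difference from control (y axis) of each probe set above the filter, by gene (x axis), for Nutlin-3 (left) and 5FU (right); filled points are probe sets whose drug and control arrays did not overlap, and red lines are gene means. CDKN1A points lie above 0 and CDKN3 points below 0 in both panels. All CDKN2C and CDKN1B points lie below 0 in the left panel and on both sides of 0 in the right panel. The other genes straddle 0 in both panels.

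CDKN2C, which encodes p18, had its lowest values after Nutlin-3. Its level was 6.34 and 6.10 in control, 5.69 and 5.28 after Nutlin-3 and 6.48 and 6.31 after 5FU. Both Nutlin-3 arrays lay below all other arrays, and the 5FU and control arrays overlapped. The difference was -0.74 for Nutlin-3 against control (95% interval -1.17 to -0.31; limma, adjusted p = 0.16) and -0.91, or 1.88-fold, for Nutlin-3 against 5FU (-1.34 to -0.48; limma, adjusted p = 0.101), and neither passed. For 5FU against control it was 0.17 (-0.26 to 0.60; limma, adjusted p = 0.88). Over the alternatives other than left-out arrays, the difference of Nutlin-3 from control ranged from -0.75 to -0.34.

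The 8 passing probe sets of CDKN2C all had values below 0 for Nutlin-3 against control, from -1.67 to -0.03, and for Nutlin-3 against 5FU, from -2.05 to -0.03, and in 6 of them the Nutlin-3 and 5FU arrays did not overlap (22.5% of all passing probe sets were lower in this way). Probe sets 2335929, 2335930 and 2335937 differed by -1.22, -1.51 and -1.67 from control after Nutlin-3, and the other 5 by -0.46 or less in size. Of these, 2335930 and 2335937 averaged 4.79 and 4.92 over the 6 arrays, not far above the filter. Probe set 2335927, the brightest of the 8, averaged 8.20 and differed by -0.25. The 3 that failed the filter differed by -0.70 to 0.26.

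CDKN1B, which encodes p27, varied most between replicates. Its level was 7.15 and 6.68 in control, 5.82 and 6.65 after Nutlin-3 and 6.35 and 6.98 after 5FU. The Nutlin-3 arrays lay below the controls, the nearer one by a small margin, and the 5FU arrays overlapped both groups. The difference after Nutlin-3 was -0.68 (95% interval -1.45 to 0.10; limma, adjusted p = 0.58) and after 5FU -0.25 (-1.03 to 0.53; limma, adjusted p = 0.914). These intervals allow a fall of more than 2-fold as well as no fall. Within-group gaps of 0.47 in control, 0.83 after Nutlin-3 and 0.63 after 5FU followed the shared replicate axis. Of its 5 probe sets, 4 passed, and all 4 had Nutlin-3 differences below 0, from -1.44 in probe set 3405455 to -0.20.

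CDKN1C, which encodes p57, was not called in any comparison. It read 7.57 and 7.65 in control, 7.78 and 7.64 after Nutlin-3 and 7.59 and 7.58 after 5FU, with both drugs overlapping control. The log2 difference was 0.10 for Nutlin-3 (95% interval -0.21 to 0.41; limma, adjusted p = 0.902) and -0.02 for 5FU (-0.33 to 0.28; adjusted p = 0.987). Differences larger than 0.41 in size lie outside both intervals. Its 11 passing probe sets ranged from -0.20 to 0.34 after Nutlin-3 and from -0.48 to 0.61 after 5FU.

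The neighbouring genes CDKN2A and CDKN2B did not pass in any comparison. CDKN2A read 7.60 and 7.77 in control, 7.64 and 7.68 after Nutlin-3 and 7.90 and 7.82 after 5FU. Its 5FU arrays lay above both controls by a margin smaller than the gap between the controls, a pattern that 20% of genes showed in this direction. The difference was -0.03 for Nutlin-3 (95% interval -0.34 to 0.29; limma, adjusted p = 0.983) and 0.17 for 5FU (-0.14 to 0.49; adjusted p = 0.781). With the median of probe sets in place of their mean, CDKN2A differed by -0.51 after Nutlin-3 (limma, adjusted p = 0.465) and -0.18 after 5FU (0.874), outside those intervals, and again did not pass. CDKN2B read 7.61 and 7.71 in control, 7.86 and 7.58 after Nutlin-3 and 7.85 and 7.74 after 5FU, and its difference was 0.06 for Nutlin-3 (-0.30 to 0.41; limma, adjusted p = 0.961) and 0.13 for 5FU (-0.22 to 0.49; adjusted p = 0.89).

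The annotation does not say which probe sets of CDKN2A read the p16 or the ARF transcript. Its 15 passing probe sets ranged from -0.51 to 0.38 after Nutlin-3 and from -0.18 to 0.65 after 5FU. The 9 passing probe sets of CDKN2B ranged from -0.46 to 0.43 after Nutlin-3 and from -0.26 to 1.03 after 5FU. CDKN2B-AS1 is transcribed from the opposite strand across CDKN2B, and whether the probe sets of CDKN2B read its RNA was not tested.

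CDKN2D, which encodes p19, read 7.47 and 7.60 in control, 7.74 and 7.29 after Nutlin-3 and 7.41 and 7.17 after 5FU. Nutlin-3 arrays spread on both sides of the controls, and 5FU arrays lay just below them. The difference was -0.02 for Nutlin-3 (95% interval -0.46 to 0.42; limma, adjusted p = 0.992) and -0.25 for 5FU (-0.69 to 0.19; adjusted p = 0.774). Its 5 probe sets, all above the filter, disagreed after Nutlin-3, with differences from -0.87 to 0.48, so that their median was 0.19 while the gene mean lay near 0. With the median of probe sets taken on each array the Nutlin-3 difference was 0.48, outside the interval above, and did not pass (limma, adjusted p = 0.659). Probe set 3850446 was the lowest after either drug, at -0.87 and -1.19, and averaged 5.03 over the 6 arrays, not far above the filter.

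The other 5 genes were not called between the drugs either. The log2 difference of Nutlin-3 from 5FU was -0.43 for CDKN1B (95% interval -1.20 to 0.35) and 0.12 for CDKN1C (-0.18 to 0.43). It was -0.20 for CDKN2A (-0.52 to 0.11), -0.07 for CDKN2B (-0.43 to 0.28) and 0.23 for CDKN2D (-0.21 to 0.67), with limma adjusted p between 0.577 and 0.866 over the 5. The interval of CDKN1B is the widest of these, and reaches a difference of over 1 on the log2 scale.

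**Figure D4:**
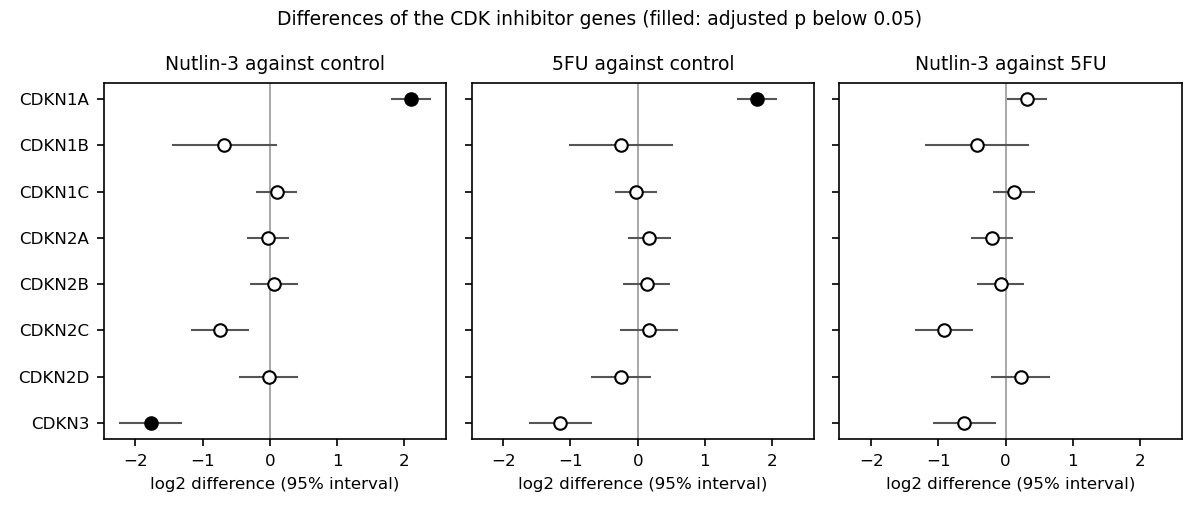
Log2 differences (x axis) of the 8 CDK inhibitor genes with 95% intervals from limma, for Nutlin-3 against control, 5FU against control and Nutlin-3 against 5FU; filled points passed an adjusted p of 0.05. CDKN1A and CDKN3 are filled in the left panel, CDKN1A in the middle one and no gene in the right one, where the intervals of CDKN1A, CDKN2C and CDKN3 exclude 0 without adjustment.

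Counted over the family, 2 of the 8 CDK inhibitors were called for Nutlin-3 against control, where limma called 1.22% of 17841 genes. For 5FU against control 1 of 8 was called, against 0.448% of all genes. In the comparison of Nutlin-3 with 5FU limma called none, although CDKN1A, CDKN2C and CDKN3 (3 of 8) had an unadjusted p below 0.05, as did 13.3% of all genes, and it called 0.633% of all genes (0.0617% higher and 0.572% lower after Nutlin-3). Arrays of the groups compared did not overlap for 4 of 8 genes between Nutlin-3 and control, with 1 higher and 3 lower, where 34.2% of all genes did not overlap (16.2% higher, 18% lower). Between 5FU and control this held for 5 of 8 (3 higher, 2 lower), and for 38% of all genes (20% higher, 18% lower). Between Nutlin-3 and 5FU it held for 5 of 8 (2 higher, 3 lower), and for 46% of all genes (20.8% higher, 25.2% lower). With 8 genes these counts are a description. The median log2 difference of the 8 was -0.02 for Nutlin-3, 0.05 for 5FU and -0.14 between the drugs, beside 0.00, 0.00 and -0.01 for all genes. Both drug comparisons share the control arrays, so their values are given side by side and were not correlated.

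Some of the kinases and cyclins that these inhibitors act on were lower after Nutlin-3. Of 15 listed, 14 were measured and 11 had values below 0. Limma called 4 of them lower, beside 0.858% of all genes. Their log2 changes were -2.996 in CCNE2 (cyclin E2), -1.86 in CCNA2 (cyclin A2), -1.28 in CCNE1 (cyclin E1) and -1.195 in CDK2, the kinase bound by p21 and p27 (limma, adjusted p between 0.00861 and 0.0246). The list's median was -0.31. CCNB1 (-1.20; limma, adjusted p = 0.0758) and CCNB2 (-1.30; adjusted p = 0.079), genes of B-type cyclins, differed by amounts like those of CDK2 and CCNE1 but did not pass. All 4 calls were lost without control replicate 1 (limma, adjusted p between 0.0553 and 0.137), and without Nutlin-3 replicate 1 of these 4 only CCNE2 was called. Without control replicate 2 neither CCNE1 (limma, adjusted p = 0.0858) nor CDK2 (0.0968) was called. After 5FU none of the 14 was called by limma, and 4 had an unadjusted p below 0.05, as did 10.7% of all genes. Of these, CCNE2 (1.54) and CDK2 (0.44) were higher on the log2 scale, and CCNB1 (-1.20) and CCNB2 (-1.07) were lower. The median of the 14 was 0.01, with 7 values on either side of 0.

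Set against 5FU, limma called CCNE2, CCNA2, CDK2 and CCNE1 lower after Nutlin-3, beside 0.572% of all genes. Their log2 differences were -4.53, -1.66, -1.64 and -1.61 in that order (limma, adjusted p between 0.00502 and 0.0342). CCNE2 was called whichever array was left out, while the other 3 lost the call without either 5FU array or Nutlin-3 replicate 1 (limma, adjusted p between 0.0618 and 0.294), and CCNA2 also without Nutlin-3 replicate 2 (0.0623), with centred arrays (0.0732) and with the median of probe sets (0.0544). The level of CCNE2 after Nutlin-3, 4.53, lay below the filter. CDK4, CDK6 and the D-type cyclins CCND1, CCND2 and CCND3, through which INK4 proteins act, had Nutlin-3 differences of -0.46, 0.16, 0.05, 0.12 and -0.17, none of which passed.

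The 14 listed ubiquitin ligase parts had a median of -0.34 after Nutlin-3. Limma called 2 of them lower, beside 0.858% of all genes. DTL, a part of the CUL4 ligase that targets p21, fell by 2.47 (limma, adjusted p = 0.00788), and CDC20, an activator of the anaphase-promoting complex, fell by 1.09 (adjusted p = 0.0197). Without control replicate 1 neither was called (limma, adjusted p = 0.0553 and 0.116), nor was CDC20 without either Nutlin-3 array. SKP2, the F-box protein that targets p27, differed by -0.999 and did not pass (limma, adjusted p = 0.0644). After 5FU CDC20 was the 1 gene of these 14 that passed, where 0.118% of all genes were called lower. It fell by 0.99 (limma, adjusted p = 0.0451), and the list's median was 0.03. That call was lost whichever array was left out (limma, adjusted p between 0.0681 and 0.343) and with trend and robust variances (0.0532), among other settings. DTL was lower after Nutlin-3 than after 5FU by -2.94 (limma, adjusted p = 0.00604), where 0.572% of all genes were called lower. Without 5FU replicate 2 this difference was -2.86 and did not pass.

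The 13 pocket proteins and E2F factors had a median of -0.36 after Nutlin-3. Limma called 4 of them lower, beside 0.858% of all genes. Their log2 changes were -2.09 in E2F8, -1.46 in the RB relative RBL1 (p107), -1.28 in E2F2 and -0.82 in E2F1, with limma adjusted p between 0.00729 and 0.0386. All 4 calls were lost without control replicate 1 (limma, adjusted p between 0.0553 and 0.187). E2F8 kept its call when any other array was left out. RBL1 lost it also without Nutlin-3 replicate 1 or control replicate 2, E2F2 without either Nutlin-3 array, and E2F1 whichever array was left out. With centred arrays RBL1 and E2F1 were not called either (limma, adjusted p = 0.06 for both), nor was E2F1 with the median of probe sets (0.112) or with 2 groups fitted alone (0.0926). RB1 itself differed by -0.30 (limma, adjusted p = 0.824) and RBL2 (p130) by 0.36 (adjusted p = 0.758). None of the 13 was called by limma after 5FU, where 4 had an unadjusted p below 0.05 (10.7% of all genes did) and the median was 0.05. E2F8 and E2F2 were called lower after Nutlin-3 than after 5FU, by -2.54 and -1.49 (limma, adjusted p = 0.00502 and 0.0191), as were 0.572% of all genes. E2F2 lost this call when any 1 of the 4 drug arrays was left out.

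Among 23 factors known to act on the transcription of CDK inhibitors, 22 were measured and limma called 0 in each comparison. An unadjusted p below 0.05 was found for 5 of the 22 in Nutlin-3 against control (10.2% of all genes), 1 in 5FU against control (10.7%) and 7 in Nutlin-3 against 5FU (13.3%). Their medians were -0.08 for Nutlin-3, 0.00 for 5FU and -0.08 for Nutlin-3 against 5FU. The largest Nutlin-3 difference was -1.10 in EZH2, a Polycomb methyltransferase that acts on the CDKN2A locus, which did not pass (limma, adjusted p = 0.106).

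**Figure D5:**
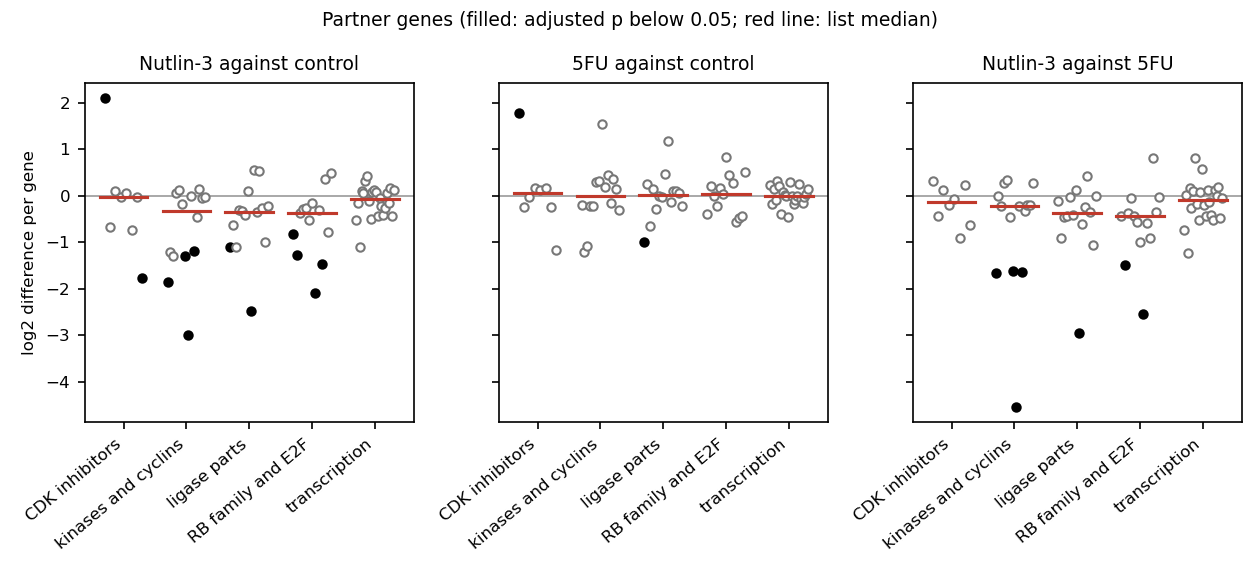
Log2 difference (y axis) of each measured gene in 5 lists (x axis): CDK inhibitors, CDKs and cyclins, ubiquitin ligase parts, RB family with E2F factors, and transcription regulators, for the 3 comparisons; filled points passed limma at an adjusted p of 0.05 and red lines are list medians. Filled points of the partner lists all lie below 0, and CDKN1A is the filled point above 0.

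The genes beside the CDK inhibitors on the chromosome were looked at for comparison. Of 14 nearest protein-coding neighbours, 12 were measured and limma called 0 in each comparison. In the same order, 2, 1 and 2 of the 12 had an unadjusted p below 0.05, beside 10.2%, 10.7% and 13.3% of all genes. Beside CDKN1A lie SRSF3, a splicing factor gene, which differed by -0.15 after Nutlin-3 and 0.32 after 5FU, and RAB44, which differed by 0.10 and -0.12. MTAP, a methylthioadenosine phosphorylase gene beside CDKN2A, differed by -0.61 and -0.84 (limma, adjusted p = 0.4 and 0.237).

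Genes whose pattern over the 6 arrays was most like a member's were found by the root mean square difference of array values, each taken relative to the gene's control mean, among 16874 other genes with at least 3 probe sets. For CDKN1A the 5 nearest were DNAI3 (0.22), MDM2 (0.24), TP53INP1 (0.26), GDF15 (0.27) and GALNT5 (0.31), where the median gene lay at 1.60. DNAI3 had a control mean of 4.38, below the filter. For CDKN3 the nearest were GAS2L3 (0.11), the spindle gene DLGAP5 (0.12), the histone gene H2BC11 (0.20), the kinesin gene KIF14 (0.21) and SGO2 (0.22), with a median gene at 1.24. For CDKN2C they were NRM (0.17), PASK (0.18), the replicative helicase gene MCM7 (0.18), the recombination gene XRCC3 (0.18) and RNASEH2A (0.18), with a median gene at 0.50, and 0 of these 5 passed limma for Nutlin-3 against control.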

How the data were processed

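The values are log2 expression per probe set, deposited by the authors and made with RMA per the submitters' processing notes. RMA subtracts background, makes array distributions alike and combines the probes of a probe set. Its version is not given in the sources used here, nor is the genome build, so genes are given without positions apart from the RefSeq promoters. The labels name a PicoPure kit and the design text an RNeasy kit. Array medians lay between 4.73 and 4.78, no value was missing from 1411399 probe sets, and depth does not apply to arrays, whose number sets the precision.

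Gene symbols came from the platform annotation, and 2966 of 19560 were updated through the RefSeq gene table of GRCh38.p14. A gene needed at least 2 probe sets above the filter, and at least 3 for relative probe-set values. All groups entered 1 model without a block in limma 3.58.1 under R 4.3.3 (lmFit and eBayes, 3 residual degrees of freedom). Calls were made at a Benjamini-Hochberg adjusted p below 0.05 over all 17841 genes, or over all probe sets with 1 symbol above the filter. An exact two-sided permutation test of 2 arrays against 2 gives no p under 0.333, and limma borrows its variance from all features. Alternatives were other probe-set filters, the median, centring, other variance settings, the replicate block and left-out arrays.

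The members and lists were chosen with earlier results of these data known. The text names all 8 members, up to 4 called genes of each partner list with the largest change per comparison, nearest neighbours, and the 5 genes most alike to CDKN1A, CDKN2C and CDKN3. CDK4, CDK6, the D-type cyclins, CCNB1, CCNB2, SKP2, RB1, RBL2 and EZH2 were named after their values were seen, as were the 5FU differences of single cyclins and CDK2. 1 gene in each of 2 lists is not analysed here.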

Additional observations from a re-analysis of the deposited data

How the results depend on the processing

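Same-numbered arrays deviated together between the drugs but not between control and either drug, so the numbers were not taken as pairs. Deviations of same-numbered arrays from their group means correlated at -0.56 between control and Nutlin-3, -0.52 between control and 5FU, and 0.63 between Nutlin-3 and 5FU. With the replicate block limma called 0, 0 and 0 CDK inhibitors and 2, 1 and 0 genes in all, with none of the partner lists, for Nutlin-3 against control, 5FU against control and Nutlin-3 against 5FU, the order used throughout. CDKN1A then stood at 2.10 after Nutlin-3 (limma, adjusted p = 0.0535) and 1.78 after 5FU (0.112), and CDKN3 at -1.77 after Nutlin-3 (0.0891). A crossed pairing, chosen after seeing the data, gave 4 (CDKN1A, CDKN1B, CDKN2C and CDKN3), 2 (CDKN1A and CDKN3) and 3 (CDKN1B, CDKN2C and CDKN3) CDK inhibitors and 1788, 1882 and 2821 genes.

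Centring the arrays gave 127, 14 and 37 genes in all, and upper-quartile probe sets, with fewer genes tested, gave 380, 151 and 234. The latter called 2 CDK inhibitors after 5FU, with CDKN3 at -1.12 (limma, adjusted p = 0.0281). The median of probe sets gave 39 genes for 5FU and 69 for Nutlin-3 against 5FU. With all probe sets 69 were called between the drugs, and 1 CDK inhibitor after Nutlin-3, as CDKN3 (-1.69) lost its call. Trend and robust variances called 11 CDK inhibitor probe sets for Nutlin-3 and 6 for 5FU. The cause was not tested.

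Leaving out 1 array, where a lone sample was assumed to vary like the other groups, gave 5 to 149, 1 to 63 and 3 to 104 genes in all. It gave 1 to 2 CDK inhibitors after Nutlin-3, 0 to 1 after 5FU and 0 between the drugs. CDKN1A ranged from 2.07 to 2.12 after Nutlin-3 and from 1.73 to 1.83 after 5FU, and CDKN3 from -1.94 to -1.60 after Nutlin-3.

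Signs turned only for values that passed nowhere. With the median of probe sets these were CDKN2B (-0.019) and CDKN2D (0.48) for Nutlin-3, CDKN2A (-0.18), CDKN2B (-0.032) and CDKN2D (0.12) for 5FU, and CDKN2B (0.014) between the drugs. With upper-quartile probe sets they were CDKN2D (0.19) for Nutlin-3, CDKN1C (0.051) and CDKN2B (-0.053) for 5FU, and CDKN2B (0.13) between the drugs. Over the left-out arrays CDKN2A ranged from -0.11 to 0.061, CDKN2B from -0.084 to 0.20 and CDKN2D from -0.24 to 0.20 after Nutlin-3. CDKN1B ranged from -0.57 to 0.066 and CDKN1C from -0.061 to 0.014 after 5FU, and CDKN2B from -0.22 to 0.069 between the drugs.

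With 2 arrays a group, differences within the printed 95% intervals cannot be told apart. Probe sets near the filter have little signal over background.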
